A study of Mus musculus with 4 samples.

Results

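Transcripts for creatine transport, creatine synthesis and amino acid uptake were read in tumor-associated macrophages (TAMs) from B16 melanomas. The 10 genes, of 16739 with a value, were the creatine transporter Slc6a8, the creatine synthesis genes Gatm and Gamt, the creatine kinase Ckb, and the amino acid transport genes Slc7a5, Slc3a2, Slc1a5, Slc38a2, Slc7a8 and Slc7a1. They were listed by symbol to set Slc6a8 beside genes of related function, and were matched to the deposited tables by Entrez identifier. Slc6a8 was selected on its lower counts in the comparison of genotypes and the others were chosen by function with their values in that comparison known, so the genotype differences of these 10 genes are given as a description, with no test. All 10 were high enough to pass the low-count filter of the fit.

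The study sequenced RNA of CD45+CD11b+F4/80+ cells sorted from tumors of 2 WT samples and 2 samples of mice lacking Trim24 in myeloid cells, to ask what the loss of this E3 ligase and transcriptional cofactor does to TAMs. All mice were C57BL/6, were 6 to 8 weeks old when B16-F10 melanoma cells were injected under the skin, and per the labels were killed 16 days later. In the deficient mice a floxed Trim24 was deleted by LysM-Cre, which is active in macrophages, monocytes and neutrophils, so other cells of these mice keep Trim24. The labels do not say whether a library is 1 mouse or a pool, and p-values therefore measure the spread between these libraries only.

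Creatine is made in 2 steps. Gatm, arginine:glycine amidinotransferase, joins arginine and glycine to guanidinoacetate, and Gamt, guanidinoacetate methyltransferase, methylates guanidinoacetate with S-adenosylmethionine. Most cells also take up creatine from the blood through the sodium- and chloride-dependent transporter Slc6a8, and creatine kinases such as Ckb pass phosphate between ATP and creatine. Macrophages are known to take up creatine through Slc6a8, and their polarized states use arginine, which is also a substrate of creatine synthesis, in different ways. Amino acids enter by exchangers and by sodium-coupled carriers. Slc7a5 (LAT1) and Slc7a8 (LAT2) are light chains that exchange large neutral amino acids when paired with the CD98 heavy chain Slc3a2, Slc1a5 (ASCT2) and Slc38a2 (SNAT2) carry glutamine and other small neutral amino acids, and Slc7a1 (CAT1) carries arginine and lysine.

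The libraries held 4476122 to 5172407 expected counts. Trim24 itself was low, at 5.86 and 2.08 normalized counts (CPM, expected counts scaled to a common total of the tested genes after TMM normalization) in WT and at 3.41 and 0.411 CPM in the mutants, so the groups overlapped, and the mutant libraries are named by their label (mutant-labelled). The methods describe sex-matched mice, but sex-linked transcripts split with the label. The Y-linked Ddx3y was 73.7 and 102 CPM in WT against 0.426 and 0.411, and Xist was 10.9 and 6.46 CPM in WT against 437 and 256. Sex and genotype label cannot be told apart in any comparison here. All 8 macrophage markers were detected in the sorted cells, with a summed level of 8602 to 9494 CPM in WT and 10417 to 10454 CPM in the mutant-labelled libraries. All 7 melanocyte markers were detected as well, at a summed 773 to 813 CPM in WT and 611 to 804 CPM in the mutant-labelled libraries. The summed level of 4 monocyte markers was 507 to 628 CPM in WT and 1023 to 1635 CPM in the mutant-labelled libraries. That of 6 neutrophil markers was 176 to 206 CPM in WT and 271 to 409 CPM in the mutant-labelled libraries. Of these 6, Cxcr2 overlapped with a log2 difference of -0.30, at 63.6 and 84.0 CPM in WT against 42.8 and 76.8 CPM. S100a8, S100a9 and Csf3r were higher without overlap. In bulk samples, fewer cells of a type and less RNA per cell cannot be told apart, and the part of these cell types in the results below was not tested.

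The promoters of the members are shown first, because several of these genes are often read together as a response to amino acid supply. The letters upstream of their start sites are given as a description only. RefSeq (GRCm38.p6) promoter windows, 250 bases before to 50 bases after the start, were found for 7 of the 10 members in 8 windows. Slc6a8, Slc7a5 and Slc1a5 had no entry. The 120 bases upstream of the start are given 5′ to 3′ on the gene's own strand, which is the minus strand for all 5, at chr2:122611278-122611397 for Gatm, chr10:80261013-80261132 for Gamt, chr15:96699729-96699848 for Slc38a2, chr5:148399905-148400024 for Slc7a1 and chr12:111672339-111672458 for Ckb. These 5 were chosen because 4 of them separated the genotype labels without overlap and Ckb did not. Capitals mark the CCAAT box (letters CCAAT), the TATA box (letters TATAAA) and the GC box (letters GGGCGG), each searched on both strands.
Gatm: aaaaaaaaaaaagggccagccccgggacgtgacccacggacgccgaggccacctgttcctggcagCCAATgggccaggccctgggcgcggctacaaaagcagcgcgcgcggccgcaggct
Gamt: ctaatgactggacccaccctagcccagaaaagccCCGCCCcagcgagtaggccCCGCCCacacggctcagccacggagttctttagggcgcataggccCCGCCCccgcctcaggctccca
Slc38a2: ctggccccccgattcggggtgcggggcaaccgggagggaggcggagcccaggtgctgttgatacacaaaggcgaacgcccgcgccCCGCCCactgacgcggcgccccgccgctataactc
Slc7a1: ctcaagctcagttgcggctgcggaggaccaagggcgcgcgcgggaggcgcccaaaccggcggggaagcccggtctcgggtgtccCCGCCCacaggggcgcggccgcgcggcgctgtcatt
Ckb: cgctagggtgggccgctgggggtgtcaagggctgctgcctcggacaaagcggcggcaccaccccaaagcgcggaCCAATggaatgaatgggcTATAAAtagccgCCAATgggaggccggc

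The stretch of Ckb held a TATAAA 28 bases and a CCAAT 46 and 16 bases upstream of the start. Gatm held 1 CCAAT at 55 bases upstream and no TATAAA or GGGCGG in this stretch. Gamt, Slc38a2 and Slc7a1 held the GC box letters on the opposite strand, at 86, 67 and 22 bases upstream in Gamt, at 35 in Slc38a2 and at 36 in Slc7a1. Over all 32851 promoter windows of the table, searched on both strands, TATAAA was found in 13.62%, CCAAT in 37.41% and GGGCGG in 35.66%. These shares are for the full windows of 300 bases. In the full windows of the members, TATAAA was found for Ckb and Slc7a1, and CCAAT for Ckb, Gatm and Slc7a1. GGGCGG was found there for Gamt, Slc38a2, Slc3a2, Slc7a1 and Slc7a8. TGATGNAA, the core letters of the amino acid response element that the factor ATF4 binds, was found in 3.97% of all windows and in 0 of the 8 windows of the members. With letters found in 3.97% of all windows, 8 windows are too few to show whether the members lack them. Slc6a8, Slc7a5 and Slc1a5 had no window, and bases outside the windows were not searched. These are matches of letters in a window of 300 bases and not measured binding sites.

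Slc6a8 was the member with the largest difference between the genotype labels. Its gene (Entrez 102857, 13 exons) lies on the plus strand of the X chromosome at chrX:73673150-73682502 (GRCm38, GENCODE M21). Slc6a8 was 23.8 and 28.1 CPM in the first and second WT library and 7.45 and 7.40 CPM in the mutant-labelled libraries. Both mutant libraries therefore lay far below both WT libraries and almost on each other. The mean was 26.0 ± 3.04 CPM (SD, n = 2) in WT and 7.43 ± 0.0408 CPM (SD, n = 2) in the mutant-labelled libraries, a log2 difference of -1.80 ± 0.28 (SE), or 3.49-fold lower. The reads behind these values were 118 and 135 expected counts in WT and 35.2 and 36.0 expected counts in the mutant-labelled libraries. Counting error at such counts is larger than the gap between the mutant-labelled values, so their closeness is no measure of precision. With every alternative setting and every library left out, the log2 difference stayed between -1.95 and -1.49.

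**Figure D1:**
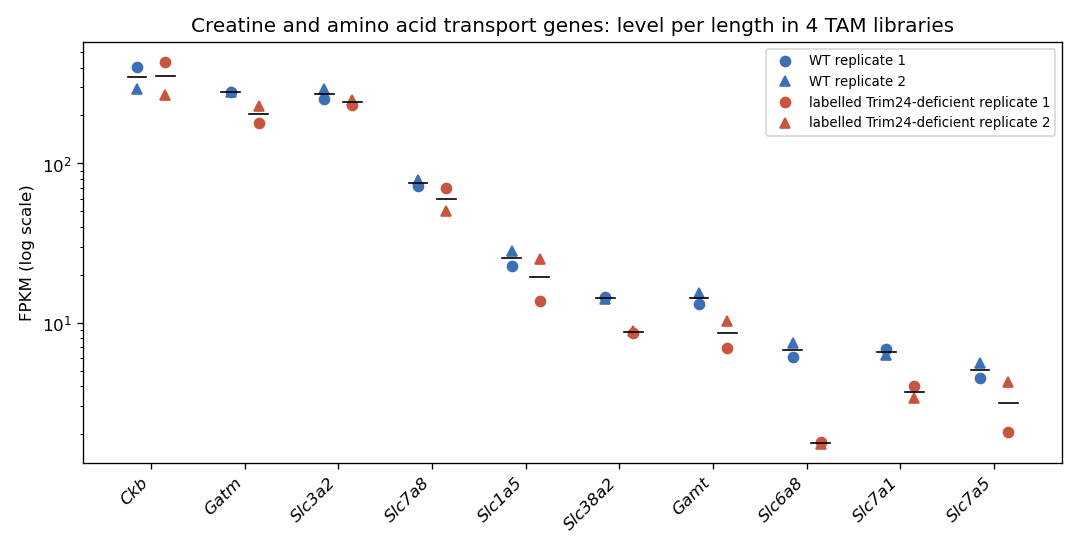
The FPKM of each of the 10 genes in each of the 4 libraries, on a log axis, with 1 point per library (WT blue, mutant-labelled red) and a line at each group's mean. Slc6a8 lies at 6.09 and 7.5 FPKM in WT and at 1.78 and 1.73 FPKM in the mutant-labelled libraries, and Ckb, Gatm and Slc3a2 lie at 179 FPKM or more in every library.

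As a level per gene length, Slc6a8 was among the low members. Its FPKM (fragments scaled by gene length and library total) was 6.80 ± 0.997 (SD, n = 2) in WT, the eighth level of the 10, and 1.76 ± 0.0354 (SD, n = 2) in the mutant-labelled libraries, the lowest of the 10. In WT its 2 values overlapped those of Slc7a1 at 6.57 ± 0.438 FPKM. In the other group they did not overlap Slc7a5, the next level above. In the first mutant-labelled library Slc6a8 had 35.2 and Slc7a5 36.0 expected counts, so counting error is larger than that gap. Both synthesis genes stood above the transporter in every library. The ratio of Gatm to Slc6a8 FPKM within a library was 46.4 and 37.7 in WT against 100 and 132 in the mutant-labelled libraries. The ratio of Gamt to Slc6a8 FPKM was 2.17 and 2.05 in WT against 3.88 and 5.92. Slc6a8 was selected on its lower counts in this comparison, so the higher ratios restate that selection and are no further result.

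Bcap31 and Plxnb3 start within 100 kb of Slc6a8 and were among the tested genes. Bcap31, which encodes an endoplasmic reticulum membrane protein, starts 13.0 kb away and was 177 and 174 CPM in WT against 201 and 266 CPM in the mutant-labelled libraries, a log2 difference of 0.41 ± 0.21 (SE) that did not pass the test (edgeR adjusted p = 0.447). The plexin gene Plxnb3, 83.4 kb away, was 4.04 and 6.04 CPM against 5.75 and 6.58 CPM (log2 difference 0.29 ± 0.42 (SE), edgeR adjusted p = 0.826). Bcap31 was thus higher in both mutant-labelled libraries than in either WT library, and Plxnb3 overlapped.

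**Figure D2:**
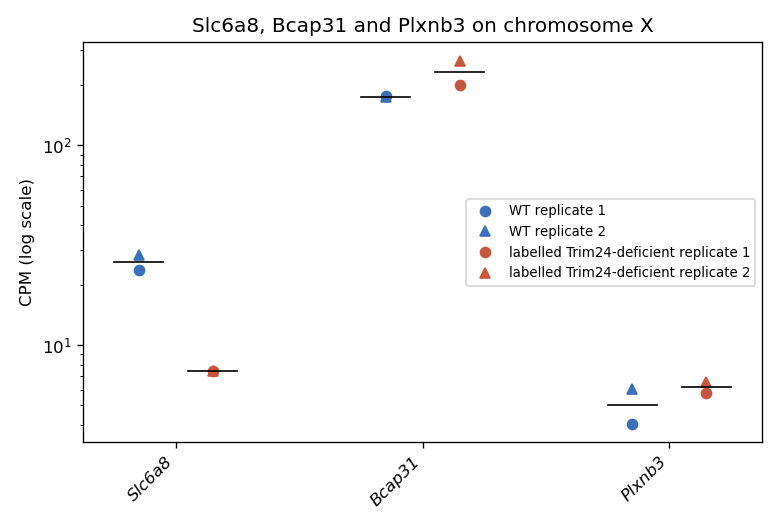
Level in CPM on a log axis, 1 point per library (WT blue, mutant-labelled red) and a line at each group's mean, of Slc6a8 and of Bcap31 and Plxnb3, which start within 100 kb of it on the X chromosome. Slc6a8 is at 23.8 and 28.1 CPM in WT and at 7.45 and 7.40 CPM in the mutant-labelled libraries, while Bcap31 is higher in the latter and Plxnb3 overlaps.

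Slc6a8 is the X-linked gene of the list. Of 356 X-linked genes tested, the median log2 difference was -0.07, and 3 were called lower (FDR below 0.05 and a fold change above 1.5) and 2 higher. Of 10917 autosomal genes the median was -0.0047, and 2 were called lower and 29 higher. The 3 X-linked genes called lower included Slc6a8 itself, which was selected on this comparison, and the 2 called higher included Xist. Over all tested genes, 0.0796% were called lower and 0.292% higher. The 4 listed X-linked genes known to escape inactivation did not share a direction. Kdm6a was 15.1 and 13.5 CPM in WT and 29.6 and 31.4 CPM in the mutant-labelled libraries, and Kdm5c was also higher without overlap (log2 difference 0.34). Eif2s3x overlapped, and Ddx3x was lower without overlap, at 174 and 169 CPM in WT and 131 and 128 CPM in the mutant-labelled libraries. The part of sex in the level of Slc6a8 was not tested.

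The 5 genes whose values over the 4 libraries were most like those of Slc6a8 were Nav2, Tlr7, Klhl41, Jade1 and Nr1d2, at distances of 0.390, 0.404, 0.456, 0.462 and 0.490 in centred log2 CPM. Tlr7, an X-linked receptor for single-stranded RNA, was 208 and 219 CPM in WT and 77.5 and 86.3 CPM in the mutant-labelled libraries. With 4 libraries this likeness rests on 1 contrast.

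Both creatine synthesis genes were lower in the mutant-labelled libraries, without overlap but by less than Slc6a8. Gatm (Entrez 67092, chr2:122594467-122611303, minus strand, 9 exons) was 652 and 625 CPM in WT and 443 and 575 CPM in the mutant-labelled libraries, a log2 difference of -0.33 ± 0.22 (SE). Gamt (Entrez 14431, chr10:80258151-80261012, minus strand, 6 exons) was 12.1 and 13.5 CPM in WT and 6.82 and 10.3 CPM in the mutant-labelled libraries, a log2 difference of -0.58 ± 0.33 (SE). In both genes the first replicate of the mutant-labelled libraries was the lowest, and the mutant libraries differed more from each other than the WT libraries did. Per length, the first enzyme was far above the second, with 283 ± 0.0495 FPKM (SD, n = 2) for Gatm and 14.3 ± 1.56 FPKM for Gamt in WT, and 203.5 ± 35.1 and 8.57 ± 2.36 FPKM in the mutant-labelled libraries. The ratio of Gatm to Gamt FPKM was 21.4 and 18.4 in WT and 25.9 and 22.3 in the mutant-labelled libraries.

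Ckb, the brain-type cytosolic creatine kinase (Entrez 12709, chr12:111669361-111672338, minus strand, 8 exons), was the highest member per length and did not separate the labels. Its level was 574 and 403 CPM in WT and 673 and 419 CPM in the mutant-labelled libraries. In each group the first replicate was the higher, the groups overlapped, and the log2 difference was 0.16 ± 0.28 (SE). Per length it stood at 347 ± 75.3 FPKM (SD, n = 2) in WT and at 352 ± 119 FPKM in the mutant-labelled libraries. The other creatine kinases and the creatine exporter were near or at 0. Ckm, the muscle kinase, had 5, 3, 1 and 1 expected counts and the mitochondrial Ckmt1 had 1, 1, 1 and 0, in the order WT replicates 1 and 2 and mutant-labelled replicates 1 and 2. Ckmt2 and Slc16a12 had 0 counts in all 4 libraries, and none of these 4 genes could be tested.

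The heavy chain Slc3a2 (Entrez 17254, chr19:8706882-8723369, minus strand, 10 exons) had the log2 difference nearest to 0. It was 639 and 706 CPM in WT and 631 and 692 CPM in the mutant-labelled libraries, with overlapping groups and a log2 difference of -0.02 ± 0.20 (SE). In FPKM, its mutant-labelled libraries were both below WT, at 232 and 251 against 253 and 293 FPKM. Slc7a8 (Entrez 50934, chr14:54722209-54781946, minus strand, 11 exons) was 291 and 303 CPM in WT and 302 and 219 CPM in the mutant-labelled libraries, with a log2 difference of -0.19 ± 0.22 (SE). Only the second mutant library stood below the rest, so the groups overlapped.

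Slc7a5 (Entrez 20539, chr8:121881150-121907694, minus strand, 10 exons) was low and uneven. It was 15.5 and 18.5 CPM in WT and 7.67 and 16.0 CPM in the mutant-labelled libraries, a log2 difference of -0.52 ± 0.36 (SE). The first mutant library was below all others and the second lay between the WT libraries. Without the first mutant library the log2 difference was -0.08, and without the second it was -1.15.

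The light chains that pair with Slc3a2 differed widely in level. The other light chains, shown here although the set was picked after values were seen, were Slc7a11 (xCT, which exchanges cystine for glutamate), Slc7a7 and Slc7a6 (exchangers of cationic for neutral amino acids). Slc7a11 was the most abundant, at 129 and 111 FPKM in WT and 95.6 and 89.8 FPKM in the mutant-labelled libraries, or 51.8%, 44.4%, 44.7% and 45.8% of the summed FPKM of the 5 light chains. Slc7a8 made up 29.1%, 31.6%, 32.8% and 25.6% of that sum in the same order, and Slc7a5 1.80%, 2.24%, 0.964% and 2.17%. Slc7a7 had a share of 14.7% and 17.3% in WT and of 19.0% and 23.2% in the mutant-labelled libraries. Slc3a2 FPKM was 1.02, 1.17, 1.09 and 1.28 times the sum of its 5 light chains, and this ratio overlapped between the groups.

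**Figure D3:**
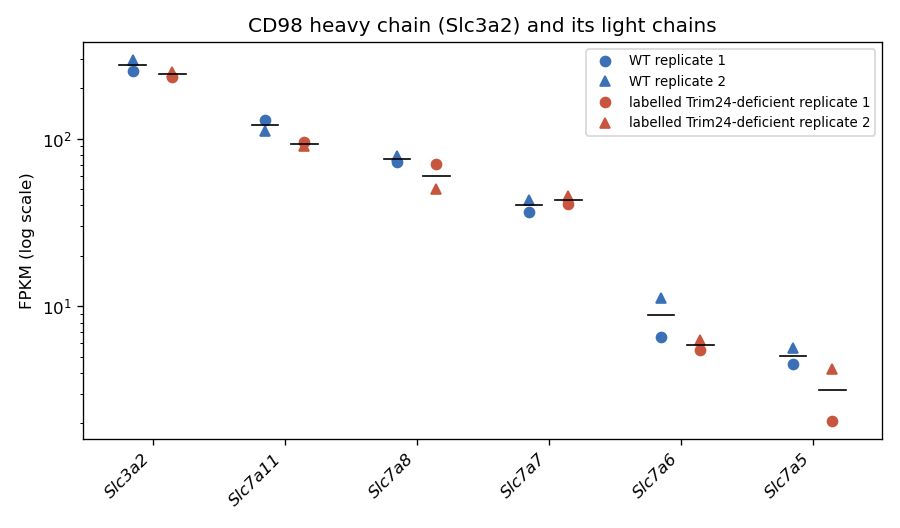
FPKM in each library of the heavy chain Slc3a2 and of the 5 light chains that pair with it, with 1 point per library (WT blue, mutant-labelled red) and a line at each group's mean, on a log axis. Slc7a11 and Slc7a8 lie highest among the light chains and Slc7a5 lies lowest, at 4.5 and 5.6 FPKM in WT and 2.06 and 4.25 FPKM in the mutant-labelled libraries.

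Of the 2 glutamine carriers, Slc38a2 separated the labels and Slc1a5 did not. Slc38a2 (Entrez 67760, chr15:96687392-96699730, minus strand, 16 exons) was 66.6 and 62.1 CPM in WT and 42.4 and 44.2 CPM in the mutant-labelled libraries, a log2 difference of -0.57 ± 0.19 (SE). The replicates of each group lay close together and the gap between the groups was wider than either spread. Slc1a5 (Entrez 20514, chr7:16781340-16798274, plus strand, 9 exons) was 61.2 and 73.3 CPM in WT and 40.0 and 74.2 CPM in the mutant-labelled libraries, a log2 difference of -0.23 ± 0.28 (SE). Its highest and its lowest value were both in the mutant-labelled libraries, and the log2 difference was 0.15 without the first of them and -0.75 without the second. The ratio of Slc1a5 to Slc7a5 FPKM, the pair proposed to act together in glutamine-coupled leucine uptake, was 5.03 and 5.06 in WT and 6.68 and 5.91 in the mutant-labelled libraries.

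The arginine carrier Slc7a1 (Entrez 11987, chr5:148327410-148399904, minus strand, 13 exons) had the second largest difference of the 10. It was 48.7 and 42.5 CPM in WT and 30.9 and 25.9 CPM in the mutant-labelled libraries, or 1.61-fold lower, with a log2 difference of -0.68 ± 0.21 (SE). The groups did not overlap. The related carrier Slc7a2 (CAT2), which macrophages induce with arginine-using programs, had values in the other direction, at 6.66 and 9.38 CPM in WT and 20.0 and 22.6 CPM in the mutant-labelled libraries. Its log2 difference was 1.41 ± 0.30 (SE) with an edgeR adjusted p of 0.107, which missed the threshold, and edgeR with the replicate block gave an adjusted p of 0.000537. The ratio of Slc7a1 to Slc7a2 FPKM was 7.91 and 4.85 in WT and 1.65 and 1.24 in the mutant-labelled libraries, so that Slc7a1 was the higher in every library.

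Over all 10 members, 9 log2 differences were below 0 and 1 was above, where 50.6% of the 11302 tested genes were below 0 and 49.4% above. The median was -0.42 for the members and -0.0059 for all tested genes. Both mutant-labelled libraries were below both WT libraries in CPM for 5 of the 10 members (Slc6a8, Gatm, Gamt, Slc38a2 and Slc7a1), as for 23.0% of all tested genes, and 2 of these (Slc6a8 and Slc7a1) differed by more than 1.5-fold, as for 8.18% of all tested genes. No member was higher without overlap, as 21.4% of all tested genes were. In the deposited FPKM, 8 of the 10 were lower without overlap, as for 35.3% of all tested genes. Slc6a8 passed the call threshold in the lower direction, which restates how it was selected and is no test of it, and it did not pass in either limma fit or without WT replicate 2. No other member passed, where 0.0796% of tested genes were called lower and 0.372% were called in either direction (0.292% higher). These counts describe a list that was chosen with this contrast known.

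**Figure D4:**
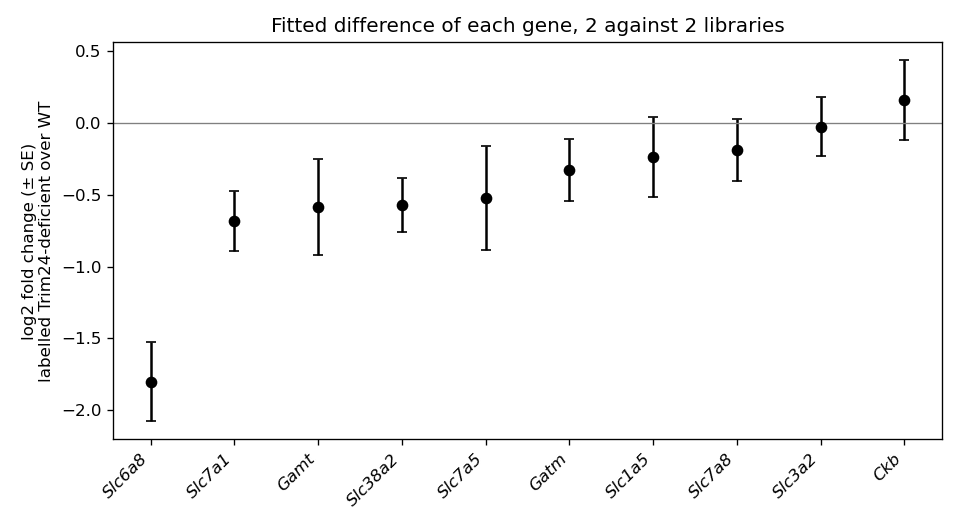
The log2 difference in CPM of the mutant-labelled libraries from WT for each of the 10 genes, with bars of 1 SE from the fit over 4 libraries. Slc6a8 lies at -1.80, Slc7a1 at -0.68 and Ckb, the one member above 0, at 0.16.

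Melanoma RNA moved unevenly beside these values. Of the 7 melanocyte markers, 4 were lower without overlap in the mutant-labelled libraries (Dct, Tyrp1, Mlana and Mitf), beside 23.0% of all tested genes. Pmel, Tyr and Sox10 overlapped, and the median log2 difference of the 7 was -0.46. Tyr, the largest part of their sum, was 411 and 424 CPM in WT and 375 and 496 CPM in the mutant-labelled libraries. The summed level of the 7 melanocyte markers was 813 and 773 CPM in WT and 611 and 804 CPM in the mutant-labelled libraries, so its lowest value was in the same library that was lowest for Gatm, Gamt, Slc7a5, Slc3a2, Slc1a5 and Slc38a2. Slc6a8 was 7.45 CPM in that library and 7.40 CPM in the other mutant-labelled library. Slc7a8 and Slc7a1 were also lowest in that other library, at 219 and 25.9 CPM. Ckb was highest in the library with the lowest melanocyte sum, at 673 CPM. The first mutant-labelled library, lowest in the melanocyte sum, had the highest summed level of the 4 monocyte markers (1635 CPM). It was also highest for 6 T and NK cell markers (210 CPM, against 55.8 to 89.5 CPM in the other 3 libraries). The sum of 5 dendritic cell markers was highest there too (66.5 CPM, against 18.9 to 36.7 CPM). Xcr1 and Clec9a made up most of that sum, at 46.4 and 14.5 CPM. Flt3 and Cd209a were below both WT libraries there, at 1.28 and 3.19 CPM. The part of RNA of these cells in the levels of the members was not tested.

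Genes that supply or surround these steps were read from wider lists of 103 genes, of which 66 were tested. With edgeR, 0 of the 66 were called and 11 had an unadjusted p under 0.05, where 1379 of 11302 genes did. DESeq2 and limma also called 0 of them, and edgeR with the replicate block called 2, Slc7a2 (log2 difference 1.42) and the Rag GTPase Rragc (-0.70), where that fit called 3.76% of all tested genes higher and 1.85% lower (5.61% in all). Without the first mutant-labelled library 1 was called (Slc7a2), and without the second 3 were (Slc7a2, Ahcy and Rragc). Of the 66, 29 log2 differences were above 0 and 37 below, with a median of -0.076. The libraries did not overlap for 13 that were higher and 23 that were lower, beside 21.4% and 23.0% of all tested genes. Of these, 2 were higher and 8 lower by more than 1.5-fold, beside 6.26% and 8.18% of all tested genes.

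Methyl donor and glycine supply, with 5 of 6 genes tested, had a median log2 difference of 0.13. Mat2a, which makes S-adenosylmethionine, was 187 and 223 CPM in WT and 233 and 229 CPM in the mutant-labelled libraries. Mat2b, its regulatory subunit, had a log2 difference of 0.16. Ahcy, which removes S-adenosylhomocysteine, had one of -0.40. Shmt2, the mitochondrial enzyme that makes glycine from serine, was 89.0 and 82.3 CPM in WT and 53.9 and 70.7 CPM in the mutant-labelled libraries, a log2 difference of -0.46 ± 0.20 (SE) with an edgeR adjusted p of 0.407. None of these genes passed the test.

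Of 19 other genes of the SLC6 family, to which Slc6a8 belongs, 2 were tested. The taurine transporter Slc6a6 was 536 and 664 CPM in WT and 492 and 400 CPM in the mutant-labelled libraries, a log2 difference of -0.43 ± 0.22 (SE) with an edgeR adjusted p of 0.461. Slc6a18, a neutral amino acid transporter known from kidney, was 2.83 and 6.46 CPM in WT and 1.70 and 1.64 CPM in the mutant-labelled libraries, a log2 difference of -1.46 ± 0.60 (SE) with an edgeR adjusted p of 0.371. Of the rest, 6 had 0 counts in all 4 libraries and 11 had too few counts to be tested. Slc6a6 was the dominant family member, and the ratio of its FPKM to that of Slc6a8 was 14.4 and 15.2 in WT and 42.1 and 34.7 in the mutant-labelled libraries. The higher ratio restates how Slc6a8 was selected.

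Of 23 other amino acid transporters of the plasma membrane, 11 were tested, with a median log2 difference of -0.18, and 0 were called by edgeR, while 1 had an unadjusted p under 0.05. The 4 with the highest FPKM were Slc7a11, Slc7a7, Slc16a10 and Slc43a2. Slc7a11 was 1180 and 970 CPM in WT and 939 and 896 CPM in the mutant-labelled libraries (log2 difference -0.23, edgeR adjusted p = 0.710). Slc7a7 was 76.9 and 86.9 CPM against 91.8 and 105 CPM (log2 difference 0.26, edgeR adjusted p = 0.602). The aromatic amino acid carrier Slc16a10 and the branched-chain carrier Slc43a2 had log2 differences of -0.18 and -0.11, and Slc1a4, the closest relative of Slc1a5, had one of -0.76 with an edgeR adjusted p of 0.651. None passed the test.

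**Figure D5:**
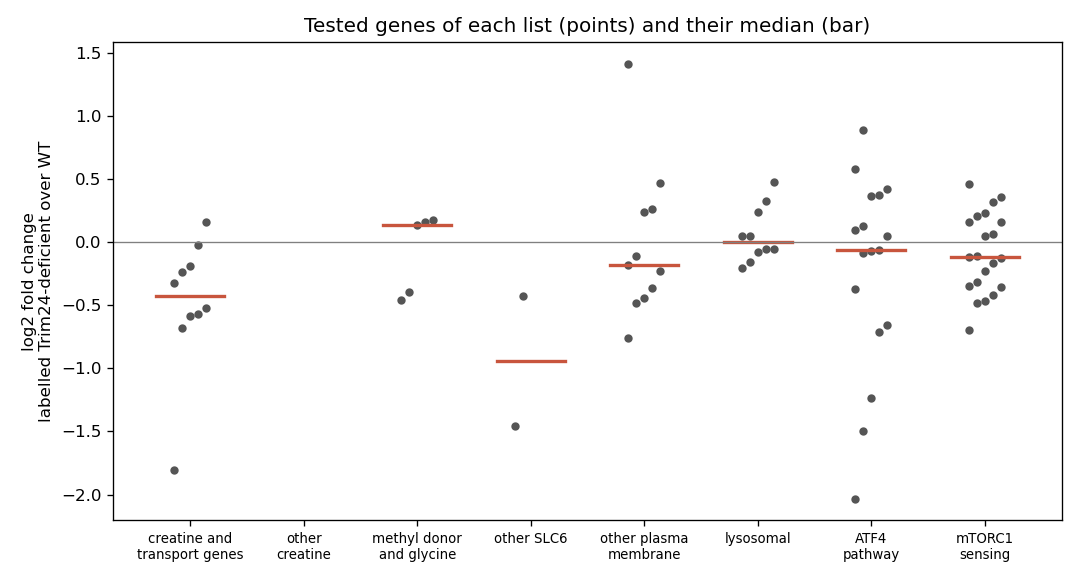
The log2 difference of the mutant-labelled libraries from WT for each tested gene of the members and of the wider lists, 1 point per gene, with a bar at each list's median (the column of other creatine genes is empty, since none was tested). The median is -0.42 for the members and lies between -0.18 and 0.13 for the wider lists, apart from the SLC6 list of 2 tested genes at -0.94.

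The ATF4 pathway is the response that raises amino acid synthesis and transport genes when amino acids run short. Of 18 listed genes 17 were tested, with a median log2 difference of -0.063, and 0 were called by edgeR, while 5 had an unadjusted p under 0.05. The median of the list was 0.24 without WT replicate 1 and -0.23 without WT replicate 2. Among the most abundant, log2 differences were -0.06 for Atf4 itself and 0.05 for the serine synthesis enzyme Psat1. They were 0.37 for Atf3 and 0.42 for the translation repressor Eif4ebp1 (edgeR adjusted p = 0.656 and 0.437). Atf4, Psat1 and Atf3 overlapped between the groups and Eif4ebp1 did not. By more than 1.5-fold and without overlap, 5 of the 17 were lower and 1 was higher, beside 8.18% and 6.26% of all tested genes. Asparagine synthetase Asns was 13.7 and 21.3 CPM in WT and 8.31 and 12.9 CPM in the mutant-labelled libraries, a log2 difference of -0.72 ± 0.34 (SE) with an edgeR adjusted p of 0.433. Trib3, a pseudokinase that restrains ATF4, was 8.88 and 5.42 CPM against 1.92 and 4.11 CPM (log2 difference -1.24 ± 0.52 (SE), edgeR adjusted p = 0.380). The serine synthesis enzyme Phgdh was 18.4 and 16.7 CPM against 13.0 and 9.25 CPM (log2 difference -0.66 ± 0.30 (SE), edgeR adjusted p = 0.413). At the lowest levels, Chac1, which breaks down glutathione, was 3.03 and 3.13 CPM against 0.852 and 0.616 CPM (edgeR adjusted p = 0.251), and the mitochondrial folate enzyme Aldh1l2 was 3.03 and 3.54 CPM against 0.639 and 1.64 CPM (edgeR adjusted p = 0.397). These rest on 15 and 15 expected counts in WT against 4 and 3 for Chac1, and 15 and 17 against 3 and 8 for Aldh1l2. Sesn2, a leucine-binding inhibitor of mTORC1 signaling, was in the other direction, at 10.7 and 10.8 CPM in WT and 21.3 and 18.5 CPM in the mutant-labelled libraries (log2 difference 0.88 ± 0.27 (SE), edgeR adjusted p = 0.230).

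TGATGNAA was found in the promoter windows of 10 of the 87 wider-list genes with a window. These were Asns, Atf3, Chac1, Lamtor4, Nupr1, Pck2, Slc1a4, Slc7a11, Slc7a7 and Trib3. It was found in 3.97% of all windows, but a gene can have several windows, so the shares are in unlike units. Asns, Atf3, Chac1, Nupr1, Pck2 and Trib3 were listed as ATF4 pathway genes to begin with. TGATGNAA is printed for 4 of the 10 genes, Slc7a11 with 2 copies, to show the letters that the windows of the members lacked. The stretches of 24 bases are on the gene's own strand, plus for Chac1 and minus for the others, at chr2:119351041-119351064 for Chac1, chr2:152344031-152344054 for Trib3, chr6:7693217-7693240 for Asns, and chr3:50443664-50443687 and chr3:50443645-50443668 for Slc7a11 (GRCm38.p6), with the 8 matched bases in capitals.
Chac1: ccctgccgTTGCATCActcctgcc
Trib3: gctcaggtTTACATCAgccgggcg
Asns: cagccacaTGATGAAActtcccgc
Slc7a11, first copy: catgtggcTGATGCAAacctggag
Slc7a11, second copy: tggagaatTTGCATCAtcatgcag

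The 10 genes with these letters had values in both directions. Without overlap of the groups, 6 were lower in the mutant-labelled libraries (Asns, Chac1, Pck2, Slc1a4, Slc7a11 and Trib3) and 3 were higher, with log2 differences of 0.58 for Nupr1, 0.32 for Lamtor4 and 0.26 for Slc7a7, while Atf3 overlapped. Over all tested genes, 23.0% were lower and 21.4% were higher without overlap. Chac1 and Slc1a4 had few reads, at 15, 15, 4 and 3 and at 12, 14, 5 and 10 expected counts. That order is WT replicates 1 and 2, then mutant-labelled replicates 1 and 2. None of the 10 passed the test.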

How the data were processed

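RNA was from CD45+CD11b+F4/80+ TAMs of 2 WT and 2 Trim24-deficient samples. Per the submitters' processing notes and methods, the authors used Bowtie for mapping to GRCm38/mm10 and RSEM for quantification (versions not given in the sources used here), and the deposited expected counts are not normalized. The authors also deposited FPKM values, scaled by gene length and library total. A transcript length per gene in the deposited tables was used for CPM per kilobase. The members and all lists were chosen with earlier results of these data known.

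Expected counts were rounded, filtered with filterByExpr (11302 of 16739 genes kept), scaled by TMM (factors 0.943 to 1.08) and tested with edgeR 4.0.16 (glmQLFit, glmQLFTest, R 4.3.3) without a replicate block. Genes were called where the FDR was below 0.05 and the change exceeded 1.5-fold. Positions are from GENCODE M21 (GRCm38), and 16698 genes matched a symbol. Named genes beyond the members were, in each list, the called genes, the 4 of highest mean FPKM and those of fold change above 1.5 without overlap. Lamtor3, Slc7a6, the untested creatine genes, the X-linked and sex-linked genes and genes holding the ATF4 letters were named outside this rule, after values were seen. Genes near Slc6a8 were tested ones starting within 100 kb (1 of them is not reported here), and likeness was the Euclidean distance of centred log2 CPM among genes of mean log2 CPM of at least 3. DESeq2 1.42.0, limma 3.58.1 on log2(FPKM + 1) and log2(FPKM + 0.1) (genes reaching 1 FPKM in 2 libraries), other scalings and filters, a block and each library left out were tried. With 2 against 2 an exact two-sided test cannot go below 0.333, so no permutation test is given. Depth limits low genes: 3 counts equalled 0.606 to 0.639 CPM, by counting error only.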

Additional observations from a re-analysis of the deposited data

How the results depend on the processing

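Between 25 and 652 genes were called when each library was left out in turn (652 without the second and 405 without the first mutant-labelled library, and 25 without WT replicate 2), against 42 with all 4. Where 1 library of a group remained, it was assumed to vary like the other group. DESeq2 called 156, and limma on log2(FPKM + 1) and log2(FPKM + 0.1) called 23 and 20. With a replicate block, edgeR called 634 genes. The labels share the numbers 1 and 2 but say nothing of pairs, and the deviations of same-numbered libraries correlated at 0.165. The block left 1 member called, Slc6a8, and raised the called wider-list genes from 0 to 2. Members called ranged from 0 (without WT replicate 2) to 1 on leaving out a library and were 0 in both limma fits. Wider-list genes called ranged from 0 to 3, with Slc7a2 called without either mutant-labelled library, and Ahcy and Rragc added without the second. Scaling to library totals moved the median of all genes to -0.15. The cause of these changes was not tested. Over 12 alternatives Ckb turned sign in 4, Slc3a2 in 2, and Slc1a5 and Slc7a8 in 1 each, while the other members stayed below 0. Precision is limited by 2 libraries a group.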

Other observations

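Of 10 lysosomal amino acid transporters, all were tested, with a median log2 difference of -0.0032, and edgeR called 0 of them, with 1 at an unadjusted p under 0.05. That gene was Slc15a3, a transporter of histidine and small peptides, at 73.9 and 81.9 CPM in WT and 117 and 99.2 CPM in the mutant-labelled libraries (log2 difference 0.47 ± 0.19 (SE), edgeR adjusted p = 0.356). The other three of highest FPKM overlapped between the groups, with log2 differences of -0.16 for Mfsd12, 0.32 for Slc66a1 and -0.05 for Slc38a7.

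Of 23 genes of amino acid sensing by mTORC1, 21 were tested, with a median log2 difference of -0.12, and edgeR called 0 of them, with 2 at an unadjusted p under 0.05. Of the 21, 9 log2 differences were above 0 and 12 below. Without overlap, 5 were higher and 8 lower, beside 21.4% and 23.0% of all tested genes. The 5 Lamtor subunits, which anchor the Rag GTPases on the lysosome, had log2 differences from 0.16 to 0.46. Their edgeR adjusted p ran from 0.405 to 0.790, and Lamtor2 overlapped between the groups. The Rag GTPase Rragc was 59.4 and 71.3 CPM in WT and 36.2 and 44.4 CPM in the mutant-labelled libraries (log2 difference -0.70 ± 0.21 (SE), edgeR adjusted p = 0.222, and 0.0344 with the replicate block).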
